A study of Drosophila melanogaster with 4 samples.

Results

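The transcripts described here encode subunits of the CCT chaperonin and of the proteasome core particle, measured by RNA sequencing in the adult female fly intestine (*Drosophila melanogaster*). They were selected on the authors' deposited table, which lists transcripts with a p-value below 0.05 for the comparison of genotypes, by taking every transcript of a gene whose symbol starts with CCT, Prosalpha or Prosbeta. This gave 11 of 1761 transcripts, from 10 of the 1526 genes matched to the annotation, with 6 transcripts of CCT genes, 3 of Prosalpha genes and 2 of Prosbeta genes. The mutant flies carried the kdm5 alleles k6801 and 10424 (2 samples), and the flies they were compared with were of the w1118 strain, a white-eyed laboratory strain used as wild type (2 samples). Kdm5 encodes a demethylase of lysine 4 of histone H3. Every sample pooled 30 dissected intestines of females 3 to 5 days old. The question of the study was which genes differ in expression between these genotypes. No driver restricted to a tissue is named in the labels, and the intestine was taken whole, so a difference in the number of cells of a type and a difference in RNA per cell cannot be told apart. Nothing in the labels says that the samples of a genotype came from separate crosses, so any spread between them may be technical.

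The CCT chaperonin, also called TRiC, is a barrel of stacked rings in the cytosol. Different but related subunits occupy fixed places in each ring, and ATP binding and hydrolysis close the barrel around a folding protein. Actin and tubulin are its best known substrates. The proteasome core particle is also a barrel, which together with a regulatory particle degrades proteins marked with ubiquitin. Its outer rings are made of alpha subunits, which form the gate and the docking face for regulatory particles, and its inner rings are made of beta subunits, of which beta1, beta2 and beta5 carry the proteolytic sites. Both machines are present in nearly all cells, and their subunits act in fixed ratios.

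The values were in TPM, a level scaled to transcript length and to the same total in every library, so levels of different transcripts can be compared. Sequencing depth is unknown, because TPM keeps no record of it. The listed transcripts held 15.6% and 15.3% of the nominal total in the mutant libraries and 23.9% and 23.5% in the w1118 libraries. The listed Kdm5 transcript (FBtr0307071) had 0.0768 and 0.0361 TPM in the mutant libraries, against 1.43 and 0.639 TPM in the w1118 libraries. No library went against its label. The transcript is of low level and was itself listed on this comparison, so it is no independent check of the labels.

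In the mutant intestine all 11 transcripts stood higher than in the w1118 intestine, and 9 of them, the abundant ones, were 1.91- to 2.74-fold higher by group means. The summed level of the CCT transcripts was 421 and 623 TPM in the mutant libraries, against 249 and 230 TPM in the w1118 libraries, a 2.18-fold difference of means. For the proteasome core the sum was 502 and 605 TPM in the mutant libraries, against 237 and 246 TPM in the w1118 libraries, a 2.29-fold difference. The 2 sums were thus of similar size within each genotype. They cover only the listed transcripts, of 5 of 8 numbered CCT genes and 5 of 14 numbered proteasome genes. They are therefore not levels of the 2 whole complexes. Listing had already used the comparison of genotypes, so these fold differences are a description of how the members were chosen and are given without a test. Both mutant libraries lay above both w1118 libraries for all 11, as they did for each of the 1036 transcripts listed as higher, 58.8% of the table.

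**Figure D1:**
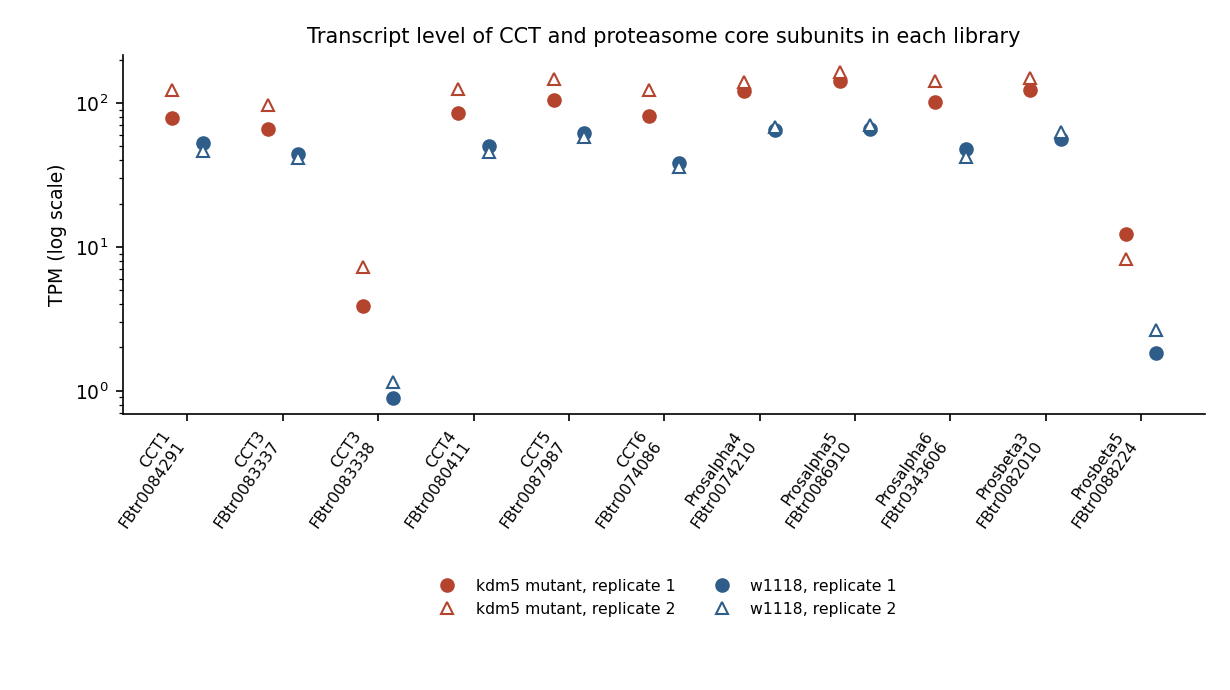
TPM on a log axis of each of the 11 CCT and proteasome core transcripts, with 1 point per library (red: kdm5 mutant, blue: w1118; circles: replicate 1, open triangles: replicate 2). The red points lie above the blue points for every transcript, and CCT3 FBtr0083338 and Prosbeta5 FBtr0088224 lie far below the other 9.

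Of the 8 numbered CCT genes in the annotation, 5 were among the listed transcripts, and CCT2, CCT7 and CCT8 were not analysed here. CCT6 (FBtr0074086, arm X, 15746648 to 15748971, plus strand, BDGP6.54) had 81.3 and 123 TPM in the mutant libraries, against 38.2 and 36.2 TPM in the w1118 libraries. This was the largest fold among the abundant CCT transcripts, 2.74, and a log2 change of 1.40 ± 0.28 (SE, n = 2 per group). CCT6 was also the lowest of the abundant members in w1118, and in the mutant its range overlapped those of CCT4 and CCT1. In yeast, CCT6 and CCT3 are among the subunits that bind ATP weakly, while CCT4 and CCT5 bind it strongly.

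CCT4 (FBtr0080411, arm 2L, 12690336 to 12692934, minus strand) had 84.8 and 126 TPM in the mutant libraries, against 50.2 and 45.9 TPM in the w1118 libraries. For CCT5 (FBtr0087987, arm 2R, 12174802 to 12177516, plus strand) the values were 105 and 146 TPM in the mutant libraries, against 62.1 and 58.3 TPM in the w1118 libraries, the highest level among the CCT members in both genotypes. CCT4 and CCT5 stood 2.19- and 2.09-fold higher, close to the fold of the CCT sum. CCT1 (FBtr0084291, arm 3R, 22489105 to 22491439, minus strand), also called T-complex protein 1, had 79.4 and 123 TPM in the mutant libraries, against 53.1 and 46.5 TPM in the w1118 libraries, a 2.03-fold difference. Its lowest mutant value was 1.495 times its highest w1118 value, so the gap between genotypes was narrow beside that of CCT6, where this ratio was 2.13.

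CCT3 had 2 listed transcripts, both on arm 3R from 16647605 to 16649978, plus strand. The abundant one (FBtr0083337) had 66.2 and 97.8 TPM in the mutant libraries, against 44.5 and 41.5 TPM in the w1118 libraries, a 1.91-fold difference and the smallest of the 11. The other (FBtr0083338) had 3.9 and 7.28 TPM in the mutant libraries, against 0.895 and 1.16 TPM in the w1118 libraries, a 5.44-fold difference and the largest of the 11. It keeps the intron of the 5′ leader: it holds 138 exonic bases that FBtr0083337 lacks, and their coding intervals are the same. Of the summed TPM of this pair, FBtr0083338 made up 5.57% and 6.93% in the mutant libraries, against 1.97% and 2.72% in the w1118 libraries. The gene has 4 annotated transcripts, all with the same coding intervals, of which the remaining 2 were not analysed here, so these shares are of the listed pair and not of the gene. How reads were divided between transcripts that share nearly all their bases is uncertain.

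**Figure D2:**
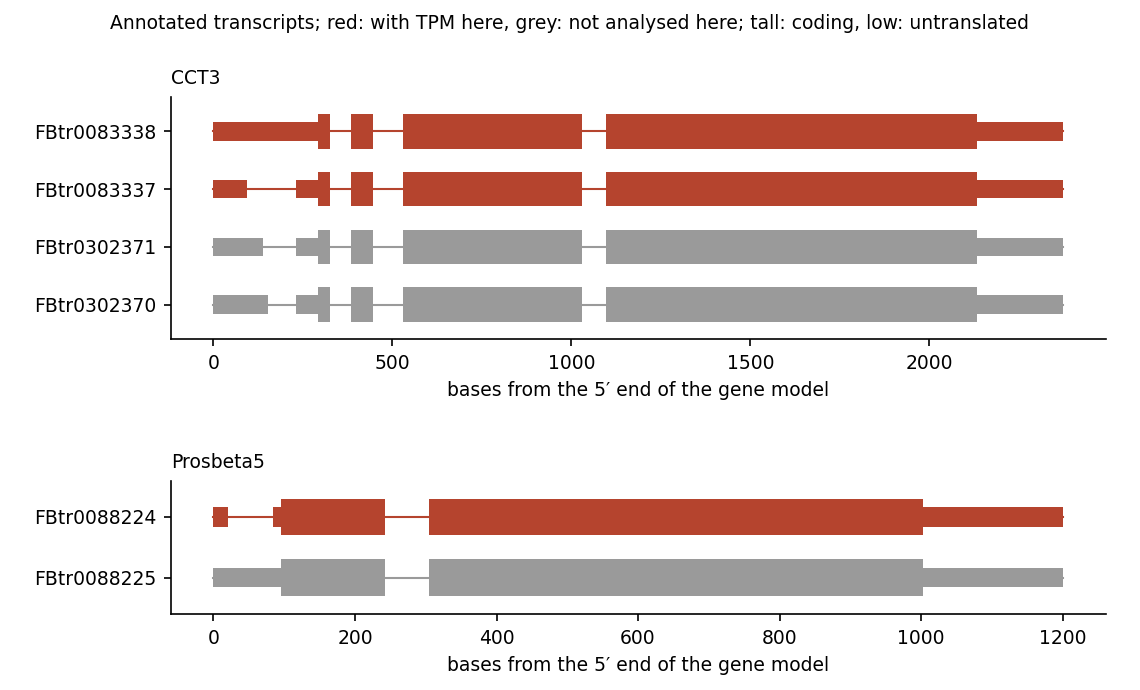
Annotated transcripts of CCT3 and Prosbeta5, drawn in bases from the 5′ end of the gene model; tall boxes are coding, low boxes untranslated, lines introns, red transcripts have TPM here and grey ones were not analysed here. FBtr0083338 keeps the leader intron that FBtr0083337 removes, and FBtr0088224 removes a leader intron that FBtr0088225 keeps.

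Of the alpha subunits, Prosalpha4, Prosalpha5 and Prosalpha6 were listed out of 7 numbered genes, and Prosalpha1, Prosalpha2, Prosalpha3 and Prosalpha7 were not analysed here. Prosalpha5 (FBtr0086910, arm 2R, 17412767 to 17413769, plus strand) had the highest level of all members in both genotypes, at 142 and 166 TPM in the mutant libraries, against 65.6 and 69.9 TPM in the w1118 libraries. The difference was 2.28-fold, with a log2 change of 1.17 ± 0.25 (SE, n = 2 per group). Prosalpha4 (FBtr0074210, arm X, 16276270 to 16277587, plus strand) had 121 and 139 TPM in the mutant libraries, against 65 and 68.7 TPM in the w1118 libraries, a 1.95-fold difference. For Prosalpha6 (FBtr0343606, arm 2L, 10221351 to 10222546, plus strand) the values were 102 and 143 TPM in the mutant libraries, against 48.2 and 42.1 TPM in the w1118 libraries. At 2.71-fold it had the largest difference of the alpha members, and like CCT6 it stood low in w1118 among the abundant members. CCT3 FBtr0083337 had a similarly low w1118 mean, 43 TPM beside 45.1 TPM for Prosalpha6, and yet the smallest fold, 1.91. In none of these alpha genes did the genotypes overlap, nor did they in any of the 1036 transcripts listed as higher, 58.8% of the table.

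Of 7 numbered beta genes, Prosbeta3 and Prosbeta5 were listed; Prosbeta1, Prosbeta2, Prosbeta4, Prosbeta6 and Prosbeta7 were not analysed here. Prosbeta3 (FBtr0082010, arm 3R, 9005313 to 9006226, minus strand), a beta subunit with no proteolytic site, had 124 and 148 TPM in the mutant libraries, against 56.5 and 62.9 TPM in the w1118 libraries. This 2.28-fold difference equalled that of Prosalpha5 to 3 digits. Prosbeta5 (FBtr0088224, arm 2R, 10819978 to 10821178, plus strand), the subunit of the chymotrypsin-like site, had 12.3 and 8.3 TPM in the mutant libraries, against 1.83 and 2.66 TPM in the w1118 libraries. Its 4.59-fold difference concerns a transcript of low level, which lacks 63 leader bases present in FBtr0088225 and holds no exonic base of its own. FBtr0088225 encodes the same protein and was not analysed here, so the level of the whole Prosbeta5 gene is unknown. None of the 11 annotated relatives named with T or R, such as Prosalpha3T and Prosbeta2R1, was among the transcripts used here.

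The remaining listed genes with several annotated transcripts differ mostly outside the coding sequence. The listed CCT1 transcript holds 64 leader bases that FBtr0084290 lacks. The listed Prosalpha6 transcript runs 43 bases further at its 3′ end than FBtr0079948, and the listed Prosalpha5 transcript has 72 leader bases of its own against 61 in FBtr0086911. CCT5 is the exception, with a first exon of 227 bases, 108 of them coding, where FBtr0087988 has another of 33 bases, 18 of them coding. CCT4, CCT6, Prosalpha4 and Prosbeta3 have 1 annotated transcript each, so for these 4 genes the listed level is that of the whole annotated gene. Exons of CCT5, Prosbeta3 and Prosbeta5 share 87, 19 and 81 bases with EndoG, CG11980 and Lsm10 on the opposite strand, and no source used here says whether reads were counted by strand.

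The levels of the abundant subunits lay close together. Among the 5 abundant CCT transcripts the highest was 1.59 and 1.5 times the lowest in the mutant libraries, against 1.62 and 1.61 times in the w1118 libraries. For the 4 abundant proteasome transcripts this ratio was 1.39 and 1.19 in the mutant libraries, against 1.36 and 1.66 in the w1118 libraries. In the mutant the order of mean TPM was Prosalpha5, Prosbeta3, Prosalpha4, CCT5, Prosalpha6, CCT4, CCT6, CCT1 and CCT3 FBtr0083337, and every neighbouring pair in that order overlapped in range. In w1118 the order was Prosalpha5, Prosalpha4, CCT5, Prosbeta3, CCT1, CCT4, Prosalpha6, CCT3 FBtr0083337 and CCT6. There the ranges did not overlap between Prosalpha4 and CCT5, between Prosbeta3 and CCT1, and between CCT3 FBtr0083337 and CCT6. Prosalpha5 was first in both orders, and the low transcripts Prosbeta5 FBtr0088224 and CCT3 FBtr0083338 came last in both.

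The sizes of the differences were ordinary for this table, in which no transcript listed as higher had a fold of means under 1.77, so similar folds of listed transcripts carry no information of their own. On log2(TPM + 1), a scale that understates the change of low transcripts, the members ranged from 0.89 to 1.79 with a median of 1.17. The median of the 1036 transcripts listed as higher was 1.15, and that of all 1761 listed was 0.86. In a limma fit over all listed transcripts, all 11 members had an adjusted p below 0.05 in the direction of higher in the mutant, beside 53.7% of the table. With the adjustment made over all annotated transcripts, 6 of 11 did, beside 22.0% of the table: CCT6, CCT3 FBtr0083338, Prosalpha5, Prosalpha6, Prosbeta3 and Prosbeta5. Nothing is read from these counts, since listing used the same contrast. In the authors' deposited table the members' p-values ran from 0.00277 (CCT6) to 0.0444 (Prosalpha4), and Prosalpha4 and CCT3 FBtr0083337 (0.0412) were nearest to the limit of 0.05; transcripts outside it were not analysed here.

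**Figure D3:**
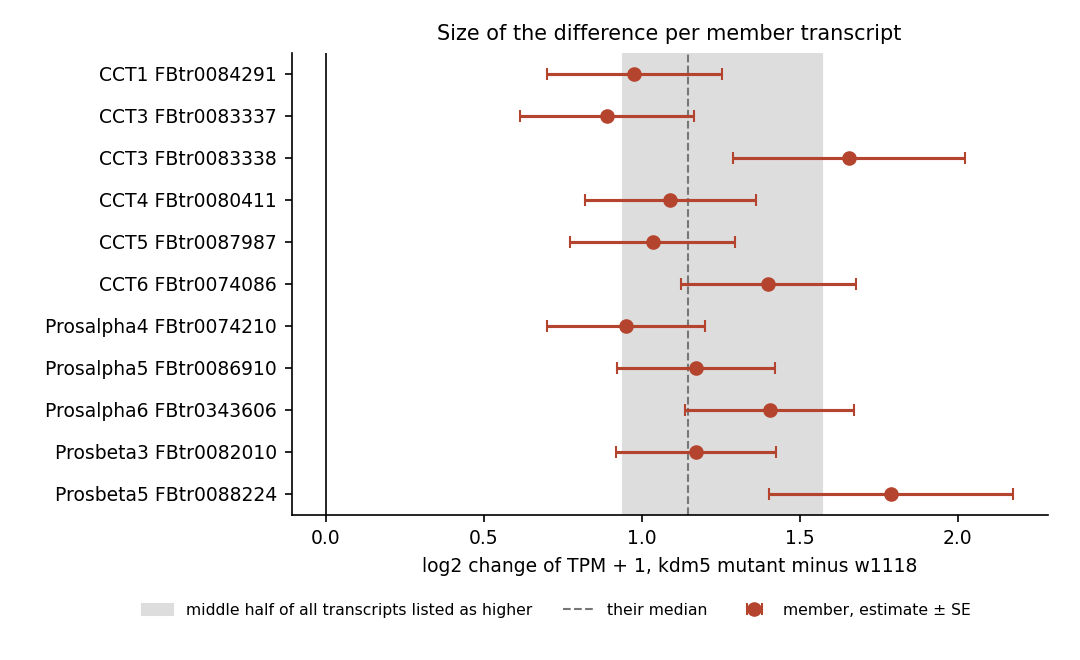
Estimated log2 change of TPM + 1 (kdm5 mutant minus w1118) of each member with its SE from limma (n = 2 per group); the grey band spans the lower to the upper quartile, 0.94 to 1.57, of the 1036 transcripts listed as higher, and the dashed line is their median. The estimates of 8 of the 11 members lie inside the band, with CCT3 FBtr0083337 below it and CCT3 FBtr0083338 and Prosbeta5 above it.

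Every member estimate stayed positive under both other scalings tried, but the size depended on them. Scaling to the TPM outside the list shifted the median of all listed transcripts by -0.11 and left the members at 0.75 to 1.73 on the log2 scale. Scaling each library by its median ratio to the mean level of the listed transcripts shifted that median by -0.75, to 0.12. The members then lay between 0.06 and 1.11, and limma called 2 of them, CCT3 FBtr0083338 and Prosbeta5. Only 4 of the 11 members had an unadjusted limma p below 0.05 with this scaling, so the others showed no clear direction. The smallest estimates were those of CCT3 FBtr0083337, Prosalpha4 and CCT1, at 0.06, 0.11 and 0.14. These median ratios come from transcripts selected for a difference, so the scaling is no neutral reference. The table-wide calls turned with this scaling to 317 higher and 717 lower, against 946 higher and 412 lower with TPM as deposited.

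The mutant libraries differed from each other, and the CCT transcripts took part in this. Mutant replicate 2 was above mutant replicate 1 for 10 of 11 members, the exception being Prosbeta5, as it was for 84.4% of the transcripts listed as higher and 77.9% of those listed as lower. The ratio of replicate 2 to replicate 1 lay between 1.39 and 1.55 for the 5 abundant CCT transcripts and between 1.15 and 1.40 for the 4 abundant proteasome transcripts, beside a median of 1.36 for all transcripts listed as higher. In w1118 the same ratio lay between 0.88 and 0.95 for the abundant CCT transcripts and between 0.87 and 1.11 for the abundant proteasome transcripts. Without mutant replicate 2, the log2 ratio of summed TPM was 0.82 for CCT and 1.05 for the proteasome core; without mutant replicate 1 it was 1.38 and 1.32. The CCT sum thus spanned a wider range than the proteasome sum over these choices. No fold of a member moved by more than 1.43 times when 1 library was left out. The part of the difference between the mutant libraries in these results was not tested.

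**Figure D4:**
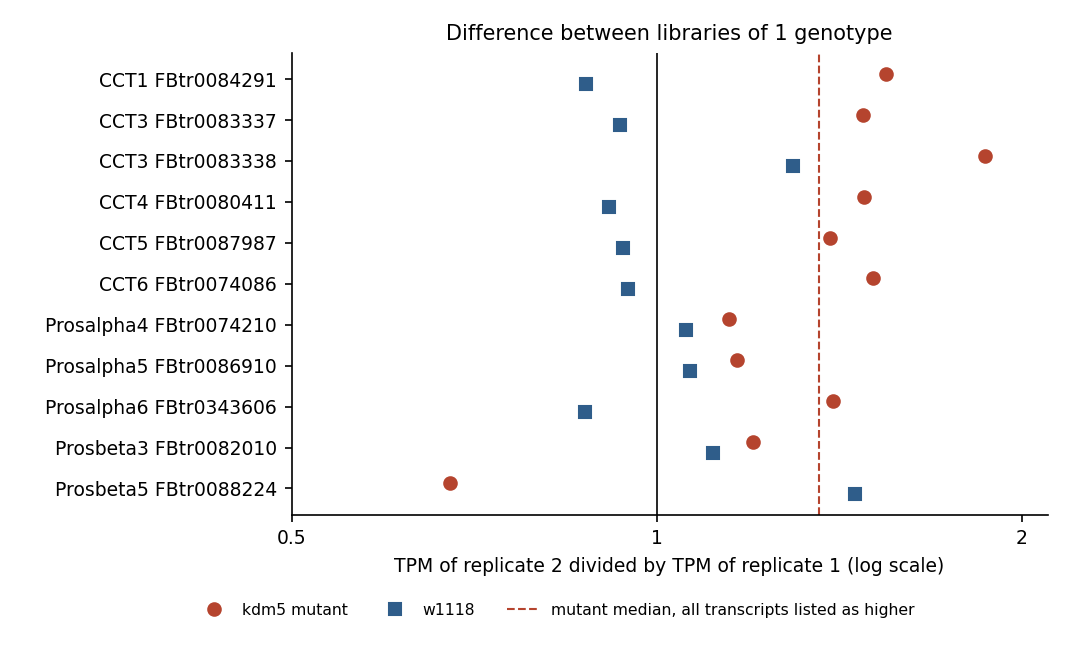
TPM of replicate 2 divided by TPM of replicate 1 for each member, on a log axis (red circles: kdm5 mutant, blue squares: w1118); the dashed line is the mutant median, 1.36, of all transcripts listed as higher. Mutant ratios of the CCT transcripts lie to the right of the dashed line, as does that of Prosalpha6, those of Prosalpha4, Prosalpha5 and Prosbeta3 lie between 1 and that line, and that of Prosbeta5 at 0.68.

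Few other genes of the same pathways were among the listed transcripts. None of 24 Rpn, Rpt and Sem1 genes of the proteasome regulatory particle, which unfolds substrates and feeds them to the core, was among them. The same held for the 8 matched genes of prefoldin and other CCT partners and the 16 matched genes of the endoplasmic reticulum stress response. Levels of all these genes were not analysed here. Uch-L5, which also belongs to the regulatory particle, was counted in the next list. Hsc70-3, a chaperone of the endoplasmic reticulum, was listed and was counted with the other chaperones. Of 16 matched genes for proteasome assembly, activation, ubiquitin and extraction, 3 were listed, all higher in the mutant. Limma called all 3 over the listed transcripts, beside 77.1% of the table called in either direction. With adjustment over all annotated transcripts it called 0 of them, beside 30.7% of the table. All 3 had an unadjusted p below 0.05, as every transcript called over the listed ones must. Nothing is read from these counts, since listing used the same contrast. REG, the PA28 activator that caps the core, had 44.2 and 73.5 TPM in the mutant libraries, against 26.9 and 28.3 TPM in the w1118 libraries. Uch-L5, a deubiquitinase of the regulatory particle, had 7.32 and 14.8 TPM in the mutant libraries, against 4.85 and 5.35 TPM in the w1118 libraries. For p47, a cofactor of the TER94 segregase, the values were 41 and 53.4 TPM in the mutant libraries, against 25.5 and 25 TPM in the w1118 libraries. By means REG and p47 stood 2.13- and 1.87-fold higher; the fold of Uch-L5, 2.17, ran from 1.44 without mutant replicate 2 to 2.91 without mutant replicate 1. Keap1, the inhibitor of the Nrf2 homologue that controls antioxidant genes, had 0.698 and 2.04 TPM in the mutant libraries, against 3.25 and 2.58 TPM in the w1118 libraries, and was the only 1 of 6 regulators listed; limma did not call it.

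Among 16 actin and tubulin genes, the substrates of CCT, 2 were listed and they went opposite ways. The alphaTub84D transcript had 32.2 and 46.6 TPM in the mutant libraries, against 21.9 and 18.9 TPM in the w1118 libraries. Act57B, a muscle actin, had 96.5 and 135 TPM in the mutant libraries, against 233 and 152 TPM in the w1118 libraries. Both were called over the listed transcripts, beside 77.1% of the table, and neither with adjustment over all annotated transcripts, beside 30.7% of the table.

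Of 37 matched genes of other chaperones, 5 were listed, 4 of them higher in the mutant. The mitochondrial chaperonin Hsp60A, a distant relative of CCT, had 123 and 147 TPM in the mutant libraries, against 64.7 and 66 TPM in the w1118 libraries. CG11267, for which RefSeq gives the synonym Hsp10, had 183 and 262 TPM in the mutant libraries, against 107 and 105 TPM in the w1118 libraries; Hsp10 proteins form the lid of the mitochondrial chaperonin. These transcripts stood 2.07- and 2.09-fold higher, beside 2.18-fold for the CCT sum. CG1416, with the RefSeq synonym Aha1, an activator of Hsp90 chaperones, had 18.1 and 27.5 TPM in the mutant libraries, against 12.5 and 11 TPM in the w1118 libraries. The small heat shock protein Hsp67Bc had 7.08 and 23.3 TPM in the mutant libraries, against 1.35 and 1.11 TPM in the w1118 libraries. Hsc70-3, the chaperone of the endoplasmic reticulum also called BiP, had 8.07 and 18.9 TPM in the mutant libraries, against 25.6 and 16 TPM in the w1118 libraries; its genotypes overlapped, and limma did not call it.

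**Figure D5:**
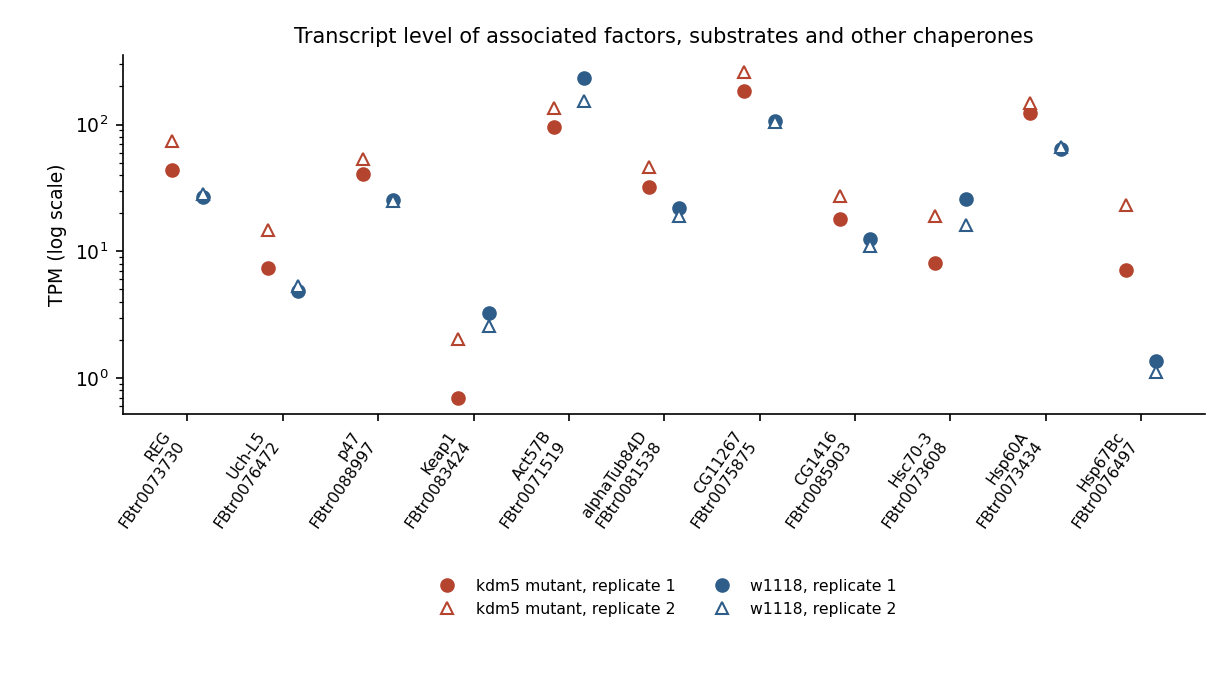
TPM on a log axis of listed proteasome-associated genes, a regulator, CCT substrates and other chaperones, with 1 point per library (red: kdm5 mutant, blue: w1118; circles: replicate 1, open triangles: replicate 2). REG, Uch-L5, p47, alphaTub84D, CG11267, CG1416, Hsp60A and Hsp67Bc have both red points above both blue points, and Keap1 and Act57B have both below.

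Some markers of cell types were also among the listed transcripts, of which 725 of 1761 were listed as lower in the mutant. Of 19 matched ovary genes none was among the listed transcripts. Of 17 cell cycle genes 1 was listed, aurB, at 1.79 and 7.9 TPM in the mutant libraries, against 1.02 and 1.02 TPM in the w1118 libraries. Of 5 matched stem cell and enteroblast genes 1 was listed, esg, at 0.48 and 0.873 TPM in the mutant libraries, against 2.02 and 1.24 TPM in the w1118 libraries. Limma did not call esg. Of 8 enteroendocrine genes 4 were listed, with 7 transcripts, all lower, summing to 24 and 32.3 TPM in the mutant libraries, against 58.5 and 50.7 TPM in the w1118 libraries. Limma called 3 of these 7 as lower over the listed transcripts, beside 412 of all 1761. With adjustment over all annotated transcripts it called 0 of them, beside 153 of all 1761. The 5 listed of 9 enterocyte genes, 4 lower and 1 higher, summed to 13584 and 11524 TPM in the mutant libraries, against 29009 and 31242 TPM in the w1118 libraries, nearly all of it from Jon65Aiii. Of these 5, limma called 2 as lower and 1 as higher, beside 412 and 946 of all 1761. The higher enterocyte marker was nub, at 1.16 and 2.14 TPM in the mutant libraries, against 0.502 and 0.551 TPM in the w1118 libraries. The 5 listed of 7 matched Malpighian tubule genes had 8 transcripts that went both ways, 3 higher and 5 lower. Limma called 3 of them as higher and 4 as lower, beside 946 and 412 of all 1761 listed transcripts. Their sum of 239 and 263 TPM in the mutant libraries, against 272 and 226 TPM in the w1118 libraries, thus hides opposite differences. The higher tubule transcripts were those of Oatp58Db, ZnT35C and Oatp58Dc, 5.41-, 2.32- and 2.16-fold by means, and the lower ones were 3 of Irk1 and 2 of salt. Fat body markers gave 1 of 8 (Tsf1, 29.8 and 38.2 TPM in the mutant libraries, against 9.24 and 10.1 TPM in the w1118 libraries). Haemocyte markers gave 2 of 7, summing to 1.2 and 1.32 TPM in the mutant libraries, against 0.957 and 0.557 TPM in the w1118 libraries, and they too went opposite ways. A transcript of srp (FBtr0335424) had 1.03 and 0.925 TPM in the mutant libraries and was at or near 0 in both w1118 libraries, while Hml had 0.169 and 0.393 TPM in the mutant libraries, against 0.957 and 0.557 TPM in the w1118 libraries. Visceral muscle gave 1 of 11, a transcript of Mhc with 0.263 and 0.822 TPM in the mutant libraries, which was at or near 0 in both w1118 libraries. Limma called it as higher over the listed transcripts, as it did 53.7% of the table. Nothing is read from the calls of these markers, since listing used the same contrast. The part of cell composition in the levels of the CCT and proteasome transcripts was not tested.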

How the data were processed

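RNA sequencing libraries of 2 kdm5 mutant and 2 w1118 samples were used, with groups and replicate numbers from the sample titles. TPM values and a p-value per transcript were deposited by the authors in 1 table; Cufflinks and DESeq are named, without versions, in the submitters' processing notes. For the aligner, build, annotation, strand setting and adjustment of the p-value, nothing is given in the sources used here. Transcripts were matched to Ensembl release 115 (BDGP6.54), 1741 of 1761, and positions are from it. Older symbols in the gene lists were matched through RefSeq synonyms.

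Differences were fitted with limma 3.58.1 (limma-trend, R 4.3.3) on log2(TPM + 1) over all 1761 transcripts, without a filter or replicate block, with Benjamini-Hochberg adjustment over the listed transcripts, threshold 0.05, or over the 35694 transcripts annotated outside transposable elements. The fit was tested on simulated data in which most transcripts were unchanged, unlike the listed transcripts, which were selected for a difference. Folds are ratios of group mean TPM. Alternatives were a pseudocount of 0.1, a mean of at least 1 TPM, other scalings, a replicate block, a single prior variance, 1 transcript per gene and each library left out.

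Members and gene lists were chosen with earlier results of these data known. All listed members were named, with all listed transcripts of the proteasome, CCT partner, actin and tubulin lists, up to 6 by mean TPM in longer lists, and Kdm5. Planned protein and promoter descriptions were not made, as no sequences were used here.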

Additional observations from a re-analysis of the deposited data

How the results depend on the processing

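By group means all 11 members stayed higher in the mutant, and 0 lower, with each library left out and under both other scalings. With median-ratio scaling only 4 of them had an unadjusted limma p below 0.05. With 1 transcript per gene, which keeps 10 members, all 10 were higher. Limma called all 10, beside 77.1% of all listed transcripts in either direction. All 88 recomputed log2 changes of single members were positive, the lowest being 0.06 with median-ratio scaling. Both mutant libraries lay above both w1118 libraries for all 11 members. Leaving out a library, the other pseudocount and the filter could therefore not change a sign, and only the other scalings could. Members called by limma numbered 11 as reported, 9 to 11 with 1 library left out (CCT1 and CCT3 FBtr0083337 were lost without mutant replicate 2, CCT3 FBtr0083338 and Prosbeta5 without w1118 replicate 1, CCT3 FBtr0083337 without w1118 replicate 2), 6 with adjustment over all annotated transcripts and 2 with median-ratio scaling. Of all listed transcripts limma called 77.1% (1358) as reported, 32.9% to 70.4% with 1 library left out (580 and 721 without w1118 replicates 1 and 2, 758 without mutant replicate 2) and 30.7% (540) with adjustment over all annotated transcripts. The log2 ratio of summed TPM was 1.12 for CCT and 1.20 for the proteasome core as reported, 0.82 to 1.38 and 1.05 to 1.32 with 1 library left out, and 0.25 and 0.34 with median-ratio scaling; scaled to TPM outside the list it was 1.05 for the proteasome core. The mean log2 change over members was 1.23 as reported and 0.43 with median-ratio scaling. With that scaling limma called 58.7% of all listed transcripts, 317 as higher and 717 as lower, beside 2 of the 11 members. With a pseudocount of 0.1 the low transcripts CCT3 FBtr0083338 and Prosbeta5 had log2 changes of 2.28 and 2.14, against 1.66 and 1.79 with 1, as a larger pseudocount understates low transcripts. With the replicate block, 11 members and 53% of all listed transcripts (933) were called; deviations of same-numbered libraries correlated at -0.19 over transcripts, which does not show that the numbers pair the libraries. A crossed pairing, added after seeing the data, called 11 members and 94.6% of all listed transcripts (1666). With 2 libraries per group and unknown depth, precision rests on the spread limma pools over transcripts selected for a difference.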

Other observations

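CCT1 and CCT6 carry the same value, 122.701 TPM, in mutant replicate 2, while their other 3 values differ. Apart from 52 transcripts that share all 4 values with another, these are the only 2 transcripts of the table with an equal non-zero value in that library; the other libraries have 2 to 4 such transcripts each. This pair was noticed after its values were seen, and its origin was not tested.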
